A study of Mus musculus with 6 samples.

Results

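The cholesterol and fatty acid synthesis genes described here are 32 genes chosen by name from the 24454 genes of the deposited table: 6 regulators of sterol synthesis, 18 sterol enzymes and 8 genes of fatty acid synthesis and desaturation. All 32 had a row, and all passed the filter on low values (1 CPM or more in 2 or more libraries, where CPM are the reads of a gene scaled to an equal total per library), as did 11524 genes in all. RNA was measured in Py2T, an epithelial line from a mouse mammary tumour, in 6 libraries of total RNA depleted of ribosomal RNA. The C40 line was kept on 40 µM H2O2, given daily through 4 months (2 libraries), and the I60 line on 60 µM over the same time (2 libraries). The control, labelled PBS, had 0 µM and is also listed at 4 months (2 libraries). The control is named after PBS in the labels' titles and called untreated in their treatment protocol. The libraries are described as biological duplicates. Whether the 2 of a group were treated apart is not known here, so a p-value reflects the spread between such duplicates, which may be technical in part. That spread is 1 estimate over all 3 groups. A p-value of I60 against PBS therefore also carries the spread between the C40 libraries, and one of C40 against PBS that between the I60 libraries. Each treated group is 1 line, so a difference that arose in a line without H2O2 cannot be told apart from an effect of the treatment.

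Cells make cholesterol from acetyl-CoA through the mevalonate pathway, squalene and a series of sterol intermediates. Most of these enzymes are transcribed under SREBP2 (Srebf2), a membrane-bound transcription factor that SCAP escorts to the Golgi for cleavage when sterols are low and that INSIG proteins hold back in the endoplasmic reticulum when sterols are high. SREBP1 (Srebf1) acts more on fatty acid synthesis, in which citrate is turned to acetyl-CoA, malonyl-CoA and palmitate, then elongated and desaturated. Epithelial tumour cells commonly draw on both pathways for membrane lipids.

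The libraries held 48113692 to 60260520 reads over the listed genes, so 1 read equalled 0.0166 to 0.0208 CPM and every member stood on at least 51 reads in each library. The C40 libraries stood apart from each other more than the others did: 1022 genes differed over 2-fold between them, against 217 in I60 and 223 in PBS. Of 5 mammary epithelial markers, 3 fell in each line and the keratin genes Krt8 and Krt18 passed in neither. Krt8 had 1534 and 1059 CPM in the C40 libraries and 1707 and 1574 CPM in the I60 libraries, against 1264 and 1164 CPM in the PBS libraries. Cdh1, the gene of E-cadherin, had 59.7 and 87.8 CPM in the C40 libraries and 0.187 and 0.129 CPM in the I60 libraries, against 529 and 537 CPM in the PBS libraries. Krt7, another keratin gene, had 792 and 863 CPM in the C40 libraries and 3.28 and 3.04 CPM in the I60 libraries, against 3115 and 3024 CPM in the PBS libraries, and Epcam, an adhesion gene, had 41.9 and 52.5 CPM in the C40 libraries and 0.730 and 1.07 CPM in the I60 libraries, against 307 and 409.8 CPM in the PBS libraries. The epithelial label was thus met by all 5 markers in PBS, whereas in I60 Krt7, Epcam and Cdh1 were near 0 and go against it, and in C40 these 3 were lower but present. Of 6 adipocyte markers none passed the filter (0), Lep and Cfd were at 0 reads in every library, and the summed level of the 6 was 0.520 and 0.331 CPM in C40 and 0.880 and 0.755 CPM in I60, against 0.122 and 0.149 CPM in PBS. Of 6 fibroblast markers, Lum, Thy1 and Fap were at 0 reads in every library. In C40 3 rose, Dcn, Pdgfra and Col1a1 (8-fold, 5.15-fold and 10.9-fold). In I60 2 rose, Pdgfra and Col1a1 (2.27-fold and 7.78-fold). The sum of the 6 was 52.1 and 38.6 CPM in C40 and 15.2 and 25.02 CPM in I60, against 6.86 and 6.01 CPM in PBS. Among 4 macrophage and leukocyte markers, Ptprc reached at most 0.35 CPM and Adgre1 was at 0 reads in every library. Cd68 had 4.26 and 3.55 CPM in the C40 libraries and 16.2 and 28.0 CPM in the I60 libraries, against 4.29 and 5.00 CPM in the PBS libraries, and rose in I60 (limma adjusted p = 0.00292). Csf1r had 5.90 and 2.81 CPM in the C40 libraries and 14.5 and 11.3 CPM in the I60 libraries, against 15.7 and 16.3 CPM in the PBS libraries, and fell in C40 (limma adjusted p = 0.0109). The sum of the 4 was 10.2 and 6.42 CPM in C40 and 30.8 and 39.3 CPM in I60, against 20.4 and 21.3 CPM in PBS. The part of these levels in the results on lipid genes was not tested.

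Sterol synthesis genes were lower in both H2O2 lines. All 18 sterol enzymes were below both PBS libraries in each of the 2 C40 and the 2 I60 libraries. Their summed level was 1538 and 826 CPM in C40 and 1203 and 1034 CPM in I60, against 2863 and 3398 CPM in PBS. In limma's test over all genes, 14 of the 18 enzymes fell in C40 and 13 in I60, and 12 of them fell in both. None (0) was higher in either line, also at an unadjusted p under 0.05. Of all genes tested, 9.02% were called lower in C40 and 13.1% in I60. Libraries of the treated line lay below both PBS libraries for 31.8% of all genes in C40 and 35.2% in I60. The median log2 fold change of the 18 was -1.53 in C40 and -1.49 in I60, beside -0.024 and -0.002 for all genes tested. Of the 24 regulators and enzymes, 15 fell in C40 and 14 in I60. The C40 count was 12 with edgeR, 9 with no filter on low values and 7 with I60 left out of the fit. With edgeR the C40 calls of Hmgcs1, Fdft1 and Nsdhl were lost (edgeR adjusted p of 0.0553 to 0.0603). With no filter, Insig1, Fdft1, Cyp51 and Nsdhl were not called in I60 (limma adjusted p of 0.0683 to 0.0908). With C40 left out of the fit, Stard4, Acat2, Hmgcs1, Mvk, Idi1 and Ebp were called lower in I60 as well (limma adjusted p of 0.00135 to 0.0125). Leaving out 1 library moved the counts of both lines up or down, as it did those of all genes. Most calls of these genes were lost in some such fit, as given below. The median log2 fold change of the enzymes stayed below 0 in each line under all 15 alternatives tried. In these bulk samples fewer cells of a type and less RNA per cell cannot be told apart, and C40 and I60 are compared with the same PBS libraries.

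**Figure D1:**
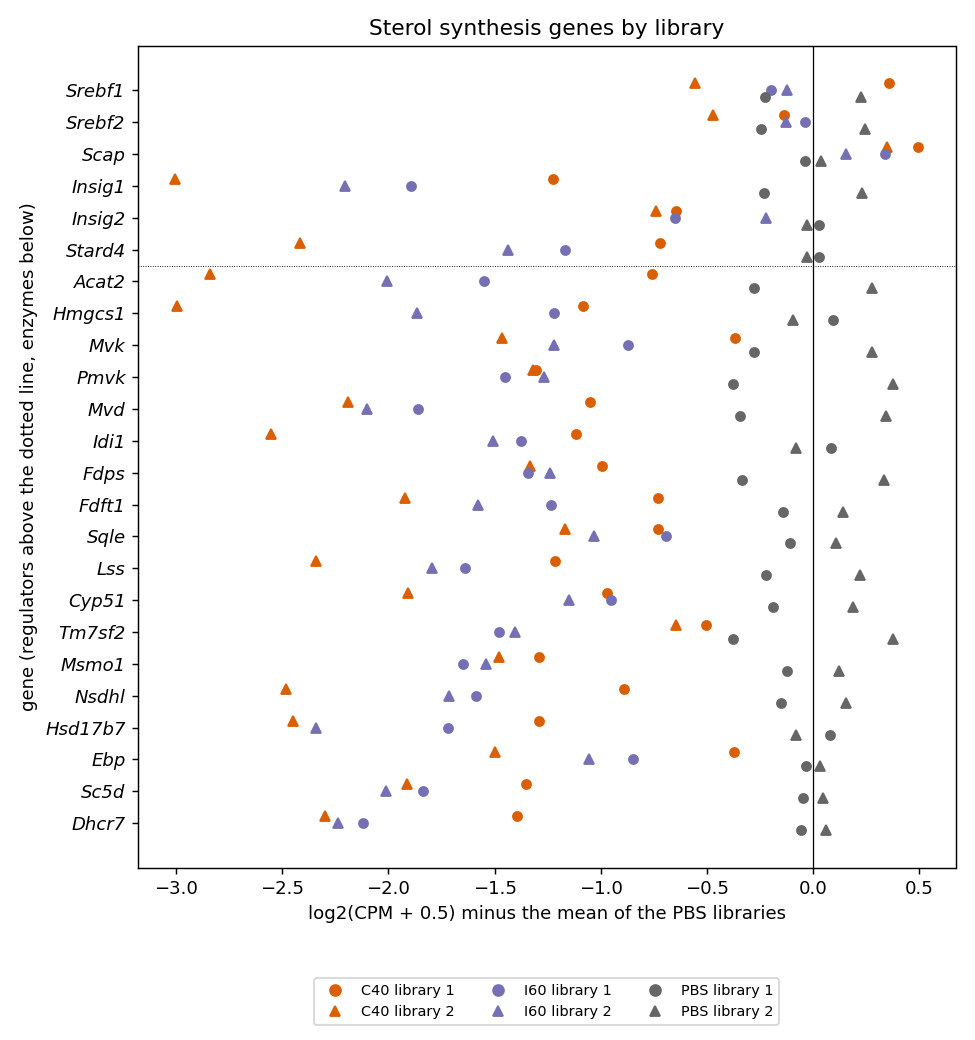
Level of the 24 sterol regulators and enzymes in each library, as log2(CPM + 0.5) minus the mean of the 2 PBS libraries (orange C40, purple I60, grey PBS; circles library 1, triangles library 2). All 18 enzymes lie left of both PBS libraries in all 4 libraries of the treated lines, and the second C40 library is the lowest for most of them.

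The lower arm of the pathway, where squalene becomes cholesterol, held the most stable differences. Dhcr7, whose product makes cholesterol from 7-dehydrocholesterol (mm10 chromosome 7, 143823167 to 143848410), had 201 and 107 CPM in the C40 libraries and 121 and 112 CPM in the I60 libraries, against 508 and 551 CPM in the PBS libraries. The libraries of both lines lay far below PBS, with the first C40 library the highest of the 4. Dhcr7 fell 3.60-fold in C40 (log2 fold change -1.85, SE 0.28, limma adjusted p = 0.0047) and 4.53-fold in I60 (-2.18, SE 0.28, limma adjusted p = 0.00159). Sc5d, the lathosterol desaturase of the step before, had 36.9 and 24.8 CPM in the C40 libraries and 26.2 and 23.2 CPM in the I60 libraries, against 91.9 and 98.0 CPM in the PBS libraries. No treated library came within reach of PBS, and Sc5d fell by 1.63 on the log2 scale in C40 (limma adjusted p = 0.00339) and by 1.92 in I60 (limma adjusted p = 0.00111). Msmo1, which oxidizes the methyl groups at carbon 4 of the ring, had 115 and 100.5 CPM in the C40 libraries and 89.3 and 96.4 CPM in the I60 libraries, against 258 and 307 CPM in the PBS libraries. Its 2 C40 libraries agreed closely, unlike those of most other enzymes, and it fell by 1.39 in C40 (limma adjusted p = 0.00177) and by 1.59 in I60 (limma adjusted p = 0.000608). These 3 were the only sterol enzymes called in both lines whichever single library was left out.

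Other enzymes of this arm moved in the same direction. Lss, which closes squalene epoxide into lanosterol, had 106 and 48.2 CPM in the C40 libraries and 78.8 and 70.7 CPM in the I60 libraries, against 211 and 288 CPM in the PBS libraries, without overlap. It fell 3.43-fold in C40 cells and 3.29-fold in I60 cells (limma adjusted p = 0.0143 and 0.0124). Hsd17b7, the sterol ketone reductase, had 38.5 and 17.0 CPM in the C40 libraries and 28.5 and 18.3 CPM in the I60 libraries, against 100.2 and 89.8 CPM in the PBS libraries. The second library of each line was the lower one, and no treated library came near PBS. Hsd17b7 fell 3.65-fold in C40 cells and 4.08-fold in I60 cells (limma adjusted p = 0.0171 and 0.00929). Cyp51, the lanosterol demethylase, had 149 and 77.4 CPM in the C40 libraries and 151 and 132 CPM in the I60 libraries, against 257 and 332 CPM in the PBS libraries, and Nsdhl, which helps remove the methyl groups, had 73.4 and 24.0 CPM in the C40 libraries and 45.0 and 41.2 CPM in the I60 libraries, against 122 and 152 CPM in the PBS libraries. Neither overlapped PBS. Cyp51 fell by 1.44 in C40 and by 1.05 in I60 (log2 scale; limma adjusted p = 0.0184 and 0.0452), and Nsdhl by 1.68 and 1.65 (limma adjusted p = 0.0441 and 0.0381). Ebp, the sterol isomerase, had 143 and 65.0 CPM in the C40 libraries and 103 and 88.7 CPM in the I60 libraries, against 180.4 and 189 CPM in the PBS libraries. It lay below PBS in every treated library but did not pass in either line (log2 fold change -0.94 and -0.95, limma adjusted p = 0.0977 and 0.0824). Tm7sf2, a sterol reductase present at low levels, had 6.55 and 5.91 CPM in the C40 libraries and 3.09 and 3.28 CPM in the I60 libraries, against 7.21 and 12.5 CPM in the PBS libraries. It fell in I60 (-1.44, limma adjusted p = 0.0127) and did not pass in C40 (-0.58, limma adjusted p = 0.22), and the difference between the lines did not pass either (I60 against C40 -0.87, interval -1.58 to -0.15, limma adjusted p = 0.15). The Tm7sf2 locus overlaps Vps51, that of Lss a noncoding gene, and the sources used here do not give the strand setting of the counting. A fit with 1 library left out estimates the spread from fewer libraries. That spread is shared by the 3 groups, of which C40 varied most between its libraries. A call lost in such a fit thus need not mean a changed effect. The C40 log2 fold changes of Cyp51 and Nsdhl stayed at -1.44 and -1.68 without either I60 replicate. Calls of this paragraph were lost in such fits. In C40, Lss and Hsd17b7 lost theirs without either PBS replicate (limma adjusted p of 0.0668 to 0.134), and Cyp51 and Nsdhl whenever a PBS or I60 replicate was left out (0.0504 to 0.189). The I60 calls of Lss, Cyp51 and Nsdhl were likewise lost without any one PBS or I60 replicate, at log2 fold changes of -1.94 to -0.86. That of Hsd17b7 was lost without I60 replicate 2 or either PBS replicate (0.0601 to 0.0844), and Tm7sf2 without either I60 replicate or PBS replicate 2 (0.0781 to 0.0829).

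The upper arm starts with Acat2 and Hmgcs1, which join acetyl-CoA units into HMG-CoA. Hmgcs1 (mm10 chromosome 13, 119690351 to 119708260) had 147 and 38.9 CPM in the C40 libraries and 134 and 85.5 CPM in the I60 libraries, against 334 and 293 CPM in the PBS libraries. The second C40 library was the lowest and the first the highest of the 4 treated libraries. Hmgcs1 fell 4.11-fold in C40 (log2 fold change -2.04, SE 0.56, limma adjusted p = 0.0443) and did not pass in I60 (-1.54, SE 0.56, limma adjusted p = 0.0863). With C40 left out of the fit it was called lower in I60 (limma adjusted p = 0.00169). Acat2 had 57.4 and 13.2 CPM in the C40 libraries and 32.9 and 23.8 CPM in the I60 libraries, against 80.2 and 118 CPM in the PBS libraries. It lay below PBS throughout, yet passed in neither line (limma adjusted p = 0.0825 for C40 and, for I60, 0.0739), with an SE of 0.61 on the log2 scale. Mvk, the mevalonate kinase, had 50.1 and 23.1 CPM in the C40 libraries and 35.1 and 27.4 CPM in the I60 libraries, against 53.3 and 78.5 CPM in the PBS libraries and did not pass either (limma adjusted p = 0.137 and 0.087). The next 2 steps did. Pmvk, the phosphomevalonate kinase, had 26.9 and 26.6 CPM in the C40 libraries and 24.2 and 27.6 CPM in the I60 libraries, against 51.5 and 87.4 CPM in the PBS libraries. Mvd, the decarboxylase, had 37.4 and 16.7 CPM in the C40 libraries and 21.1 and 17.8 CPM in the I60 libraries, against 61.4 and 99.0 CPM in the PBS libraries. Both were below PBS in all 4 treated libraries, with PBS library 2 above PBS library 1. Pmvk fell by 1.31 in C40 and by 1.36 in I60 (log2 scale; limma adjusted p = 0.016 and 0.0105) and Mvd by 1.62 and 1.98 (limma adjusted p = 0.0313 and 0.0112). Idi1, the isopentenyl diphosphate isomerase, was the scarcest of this arm, with 3.39 and 0.938 CPM in the C40 libraries and 2.75 and 2.47 CPM in the I60 libraries, against 8.44 and 7.47 CPM in the PBS libraries. It fell in C40 (-1.84, limma adjusted p = 0.0294). It did not pass in I60 (-1.44, limma adjusted p = 0.0531) or for I60 against C40 (0.39, limma adjusted p = 0.678). Its relative Idi2 had at most 0.14 CPM and Acat3, the relative of Acat2, at most 0.295 CPM in any library, so little was counted on these copies.

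Fdps, Fdft1 and Sqle carry the pathway from isoprenoids through squalene to its epoxide. Fdps, the farnesyl diphosphate synthase, had 93.9 and 74.0 CPM in the C40 libraries and 73.5 and 79.1 CPM in the I60 libraries, against 149 and 237 CPM in the PBS libraries. Fdft1, the squalene synthase, had 83.5 and 36.3 CPM in the C40 libraries and 58.6 and 46.1 CPM in the I60 libraries, against 126 and 153 CPM in the PBS libraries. Sqle, the squalene epoxidase, had 171 and 126 CPM in the C40 libraries and 175 and 139 CPM in the I60 libraries, against 263 and 306 CPM in the PBS libraries. None of the 3 overlapped PBS in either line. In C40 and I60, Fdps fell by 1.16 and 1.29 (log2 scale; limma adjusted p = 0.0184 and 0.00918), Fdft1 by 1.33 and 1.41 (limma adjusted p = 0.0478 and 0.0312) and Sqle by 0.95 and 0.86 (limma adjusted p = 0.0213 and 0.0237). The Fdft1 locus overlaps that of Ctsb. Among the C40 calls of the upper arm and these 3 genes, Pmvk lost its call without PBS replicate 2 (limma adjusted p = 0.0902), Sqle without PBS replicate 1 or 2 (0.0951 and 0.131) and Fdps without PBS replicate 2 or either I60 replicate (0.0503 to 0.0993). Hmgcs1, Idi1, Mvd and Fdft1 each lost theirs when any PBS or I60 replicate was left out (limma adjusted p from 0.0717 to 0.235), and Mvd and Fdft1 also without C40 replicate 2 (limma adjusted p = 0.0554 and 0.0657). In I60, Pmvk, Mvd and Fdps lost theirs without either I60 replicate or PBS replicate 2 (limma adjusted p from 0.0579 to 0.0926), and Fdft1 and Sqle when any PBS or I60 replicate was left out (0.0574 to 0.18).

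**Figure D2:**
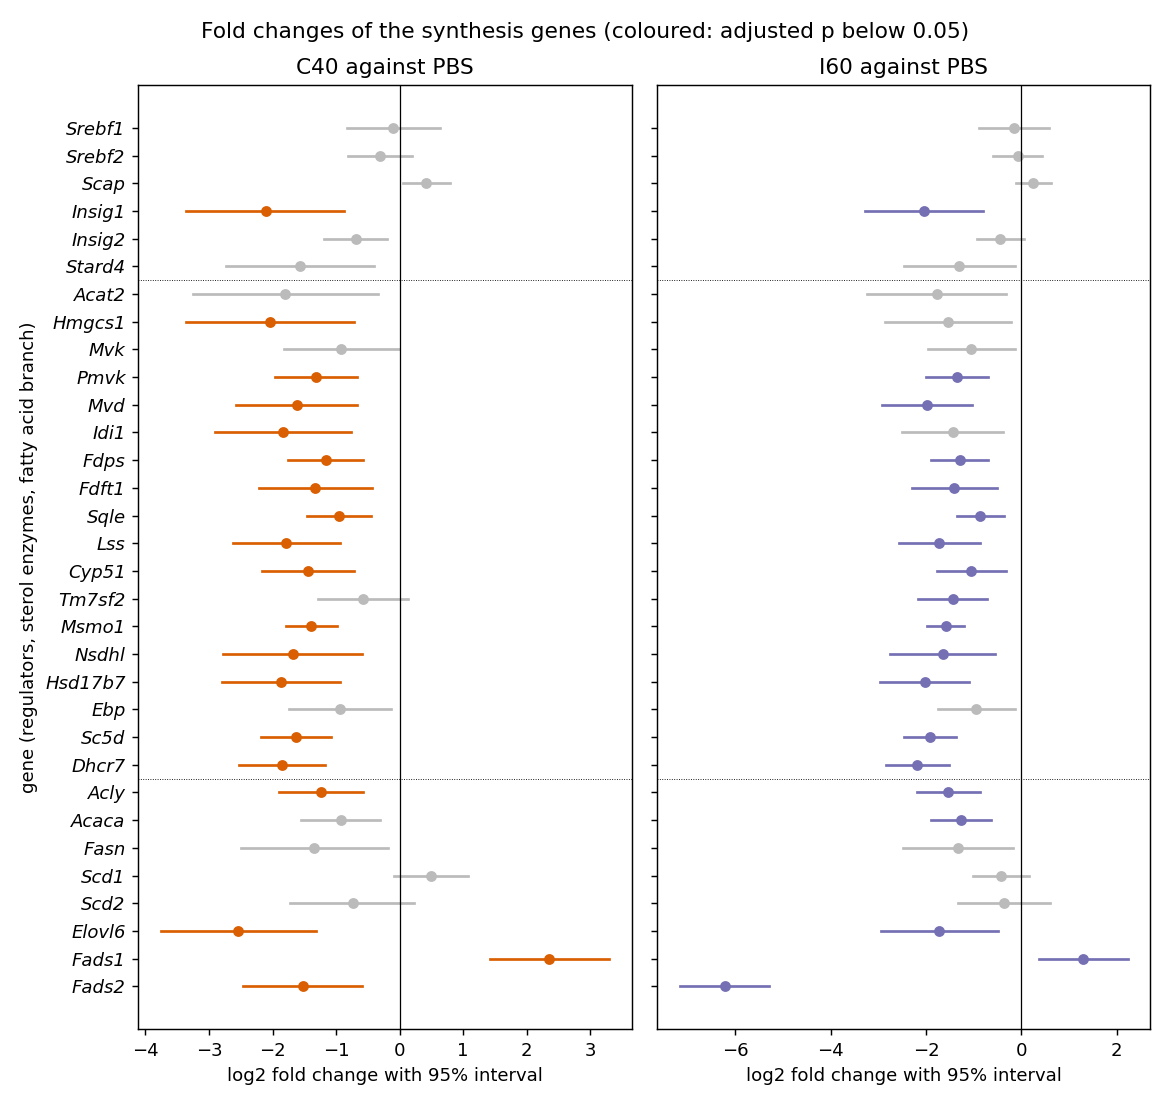
Log2 fold changes of the 32 genes with 95% intervals from limma, for C40 against PBS on the left and I60 against PBS on the right, coloured where the adjusted p is below 0.05 and grey elsewhere. In each panel 19 genes are coloured, and Fads1 alone of these lies above 0.

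Since the sterol enzymes moved together, the promoters given for the members were searched on both strands for TCACNCCAC, a form of the sterol regulatory element bound by SREBP, and for CCAAT, the site of NF-Y, and GGGCGG, the site of Sp1 type factors, both known to assist SREBP. Promoter windows of 250 bases before to 50 after a start were at hand from RefSeq (GRCm38.p6, the build of mm10) for 25 of the 32 members. CCAAT was present for 14 of 15 sterol enzymes (93.3%), 4 of 5 regulators and 2 of 5 genes of the fatty acid branch, beside 41.1% of the 27025 genes that had a window. GGGCGG was present for 14 of 15 sterol enzymes (93.3%), 5 of 5 regulators and 2 of 5 genes of the fatty acid branch, beside 38.2% of all genes. TCACNCCAC was present for 1 member, Hmgcs1, beside 1.44% of all genes. All genes here are these 27025, whether or not they passed the filter on low values. All members passed it, so the sets compared are unlike. The only Acaca window (chromosome 11, 84195188 to 84195487) lies inside its locus (84129635 to 84401651), and none at the 5′ end of the locus was at hand. The only Fasn window (chromosome 11, 120824498 to 120824797) likewise lies inside its locus (120805958 to 120825166), as do all windows of Srebf1. A match in these letters is a description, not a bound site. As examples, the windows of 2 sterol enzymes with several matches and of Fasn and Fads2 of the fatty acid branch follow. They read 5′ to 3′ on the gene's strand, with TCACNCCAC and CCAAT in capitals. CCAAT on the other strand reads ATTGG, and the Fasn window holds 2 matches that overlap as CCAATTGG. The match in Hmgcs1, TCACCCCAC, begins 137 bases before the start.
Hmgcs1 (chr13:119690101-119690400, + strand): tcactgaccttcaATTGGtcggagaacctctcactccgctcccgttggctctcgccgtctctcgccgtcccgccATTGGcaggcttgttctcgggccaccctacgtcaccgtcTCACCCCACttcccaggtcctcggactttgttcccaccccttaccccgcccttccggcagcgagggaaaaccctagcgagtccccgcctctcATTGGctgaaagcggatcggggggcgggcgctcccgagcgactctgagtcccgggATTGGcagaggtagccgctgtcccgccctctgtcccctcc
Msmo1 (chr8:64733529-64733828, - strand): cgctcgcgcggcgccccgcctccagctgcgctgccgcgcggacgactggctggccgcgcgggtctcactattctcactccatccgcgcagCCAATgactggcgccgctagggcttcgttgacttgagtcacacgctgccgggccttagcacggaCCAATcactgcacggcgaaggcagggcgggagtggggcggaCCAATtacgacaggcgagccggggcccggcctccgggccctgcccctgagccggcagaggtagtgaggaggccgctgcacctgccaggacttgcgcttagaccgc
Fasn (chr11:120824498-120824797, - strand): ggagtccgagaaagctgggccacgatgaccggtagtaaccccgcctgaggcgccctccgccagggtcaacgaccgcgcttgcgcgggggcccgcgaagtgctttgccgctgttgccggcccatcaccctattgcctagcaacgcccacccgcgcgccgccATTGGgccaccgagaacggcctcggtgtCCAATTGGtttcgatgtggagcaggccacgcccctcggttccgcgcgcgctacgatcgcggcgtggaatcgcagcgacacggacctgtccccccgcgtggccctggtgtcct
Fads2 (chr19:10101454-10101753, - strand): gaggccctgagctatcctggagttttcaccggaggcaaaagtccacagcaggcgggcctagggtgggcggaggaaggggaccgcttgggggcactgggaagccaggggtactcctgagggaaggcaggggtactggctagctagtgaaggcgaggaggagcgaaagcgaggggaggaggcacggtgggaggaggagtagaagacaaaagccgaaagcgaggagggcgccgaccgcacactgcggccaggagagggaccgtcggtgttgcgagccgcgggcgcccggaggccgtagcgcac
Hmgcs1 carried 4 CCAAT matches, Msmo1 3, Fasn 3 and Fads2 0.

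Of the 6 regulators 1 passed in each line, Insig1, and it fell. Of all genes, 9.02% were called lower in C40 and 13.1% in I60. The count of 1 of 6 is near this background and is no result about the regulators. Insig1 (mm10 chromosome 5, 28071412 to 28078662), which retains the SCAP and SREBP complex and is itself induced by SREBP, had 62.1 and 17.7 CPM in the C40 libraries and 38.8 and 31.2 CPM in the I60 libraries, against 124 and 171 CPM in the PBS libraries. Every treated library lay well below both PBS libraries, and the second C40 library was the lowest. It fell 4.32-fold in C40 (limma adjusted p = 0.0313) and 4.14-fold in I60 (limma adjusted p = 0.0275), and both calls were lost when any PBS or I60 replicate was left out (limma adjusted p of 0.0743 to 0.162). Insig2, its relative, had 31.3 and 29.4 CPM in the C40 libraries and 31.2 and 42.3 CPM in the I60 libraries, against 50.2 and 48.4 CPM in the PBS libraries. It lay below PBS without overlap and did not pass (log2 fold changes -0.69 and -0.44, limma adjusted p = 0.0586 and 0.173). Stard4, a carrier of free cholesterol in the cytosol, had 37.2 and 11.1 CPM in the C40 libraries and 27.1 and 22.5 CPM in the I60 libraries, against 62.9 and 60.3 CPM in the PBS libraries, also below PBS without overlap, and did not pass (-1.57 and -1.30, limma adjusted p = 0.0658 and 0.0969).

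The genes of the SREBP proteins themselves showed no such difference. Srebf2 had 372 and 295 CPM in the C40 libraries and 399 and 375 CPM in the I60 libraries, against 345 and 485 CPM in the PBS libraries, so that 3 of the 4 treated libraries lay between the PBS libraries (log2 fold change -0.30, interval -0.81 to 0.20, in C40 and -0.08, interval -0.59 to 0.43, in I60; limma adjusted p = 0.348 and 0.809). Srebf1 had 239.6 and 127 CPM in the C40 libraries and 163 and 172 CPM in the I60 libraries, against 160.0 and 219 CPM in the PBS libraries, where the C40 libraries lay on either side of PBS (-0.10, interval -0.83 to 0.63, and -0.16, interval -0.89 to 0.57; limma adjusted p = 0.845 and 0.733). The sign of Srebf1 in C40 turned without C40 replicate 2 (0.36) or PBS replicate 2 (0.12), and without PBS replicate 2 the I60 values were 0.06 for Srebf1 and 0.16 for Srebf2. Scap had 218 and 197 CPM in the C40 libraries and 196 and 173 CPM in the I60 libraries, against 151 and 159 CPM in the PBS libraries. It was the regulator above PBS in every treated library, and did not pass (log2 fold change 0.42 and 0.25, limma adjusted p = 0.102 and 0.283). The Srebf1 locus overlaps Rai1, and RNA levels say nothing of the cleavage of the proteins.

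The 2 C40 libraries differed from each other on these genes. Library 2 was below library 1 for all 18 sterol enzymes, all 6 regulators and 7 of 8 genes of the fatty acid branch, while 6180 of the 11524 genes tested were. The median of library 2 minus library 1 over the enzymes was -1.11 in C40 and -0.18 in I60, against 0.30 in PBS, on the log2(CPM + 0.5) scale. Relative to the mean of PBS, the median of the enzymes was -1.02 in C40 library 1 and -1.92 in C40 library 2, and -1.46 and -1.56 in the I60 libraries. For the fatty acid branch it was -0.60 and -1.50 in the C40 libraries. The gap between the C40 libraries was widest for Acat2 (-2.08), Hmgcs1 (-1.91), Insig1 (-1.78), Elovl6 (-1.77) and Stard4 (-1.70). It was close to 0 for Pmvk (-0.01), Tm7sf2 (-0.14) and Msmo1 (-0.19). For Hmgcs1 library 1 stood at -1.08 and library 2 at -2.99 relative to PBS, and for Insig1 at -1.22 and -3.00. The log2 fold changes of Hmgcs1 and Insig1 in C40 thus depended on the library by the gaps given above (-1.91 and -1.78). More of the 24 sterol regulators and enzymes were called lower without C40 replicate 1 than without C40 replicate 2. The same held for the counts over all genes. Genes of dividing cells moved with this gap: all 8 markers were lower in C40 library 2 (median -0.98), and their sum was 2591 and 1260 CPM in C40 and 2432 and 1878 CPM in I60, against 3452 and 2641 CPM in PBS. Of these 8, Top2a alone was called lower in each line, and the part of cell division in the sterol result was not tested.

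**Figure D3:**
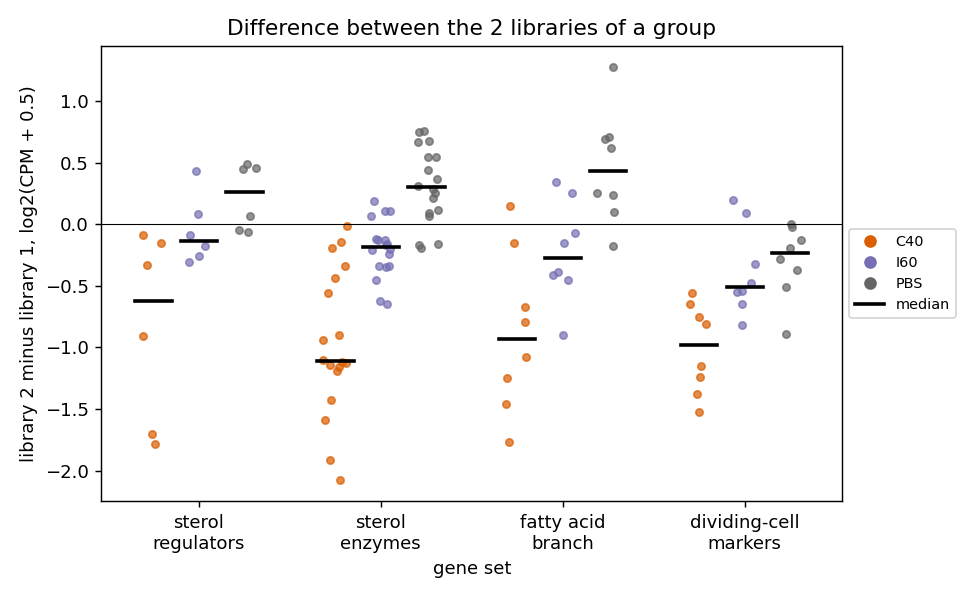
Library 2 minus library 1 within each group, on the log2(CPM + 0.5) scale, for each gene (points) of 4 sets, with the median as a bar. In C40 every sterol regulator and enzyme lies below 0 (enzyme median -1.11), whereas the medians of the 3 lipid sets lie between -0.27 and -0.14 in I60 and between 0.26 and 0.44 in PBS. The medians of the markers of dividing cells are -0.98, -0.51 and -0.24.

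The fatty acid branch was less uniform. Of its 8 genes, C40 had 3 that fell and 1 that rose, and I60 had 4 that fell and 1 that rose, beside 9.02% and 13.1% of all genes called lower and 11.2% and 13.9% called higher. The median log2 fold change was -1.08 in C40 and -1.29 in I60. The counts of lower genes moved up or down with 1 library left out, as did those of all genes. All C40 calls of lower genes were lost without either PBS replicate. Acly, which splits citrate into the acetyl-CoA that both pathways use, had 492 and 284 CPM in the C40 libraries and 350.4 and 263 CPM in the I60 libraries, against 852 and 913 CPM in the PBS libraries, without overlap. It fell 2.36-fold in C40 (limma adjusted p = 0.0224) and 2.90-fold in I60 (limma adjusted p = 0.00698). Acaca, the carboxylase that makes malonyl-CoA, had 100.0 and 62.6 CPM in the C40 libraries and 71.6 and 54.7 CPM in the I60 libraries, against 138 and 164 CPM in the PBS libraries. It was below PBS in each treated library, fell by 1.26 on the log2 scale in I60 (limma adjusted p = 0.0127) and narrowly did not pass in C40 (-0.92, limma adjusted p = 0.0501). Its locus overlaps that of Tada2a. Fasn, the fatty acid synthase and among the most abundant members (mm10 chromosome 11, 120805958 to 120825166), had 1311 and 478 CPM in the C40 libraries and 1094 and 585 CPM in the I60 libraries, against 1844 and 2174 CPM in the PBS libraries. The second library of each line was well below the first, and Fasn passed in neither line (log2 fold change -1.34 and -1.32, limma adjusted p = 0.0981 and 0.0896). With C40 left out of the fit it was called lower in I60 (limma adjusted p = 0.011). Elovl6, which lengthens palmitate to stearate, had 60.0 and 17.2 CPM in the C40 libraries and 66.7 and 48.7 CPM in the I60 libraries, against 202 and 178 CPM in the PBS libraries. It fell 5.80-fold in C40 (limma adjusted p = 0.0148) and 3.31-fold in I60 (limma adjusted p = 0.0473), the largest fall of any member in C40. With no filter on low values, Elovl6 was not called in I60 (limma adjusted p = 0.102), nor Acly in C40 (limma adjusted p = 0.0577). The C40 calls of Acly and Elovl6 were lost without either PBS replicate (limma adjusted p of 0.0812 to 0.128). The I60 calls of Acly and Acaca were lost without I60 replicate 2 or either PBS replicate (limma adjusted p from 0.0558 to 0.103), and that of Elovl6 when any PBS or I60 replicate was left out (0.133 to 0.231).

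**Figure D4:**
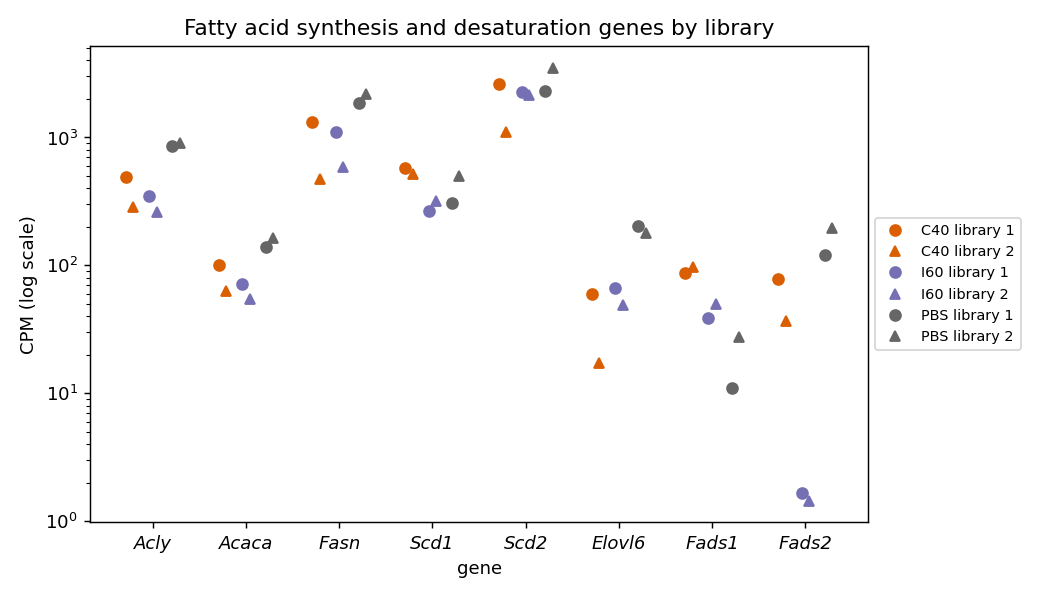
CPM (log scale) of the 8 genes of the fatty acid branch in each library (orange C40, purple I60, grey PBS; circles library 1, triangles library 2). Acly, Acaca, Fasn and Elovl6 lie below PBS in all 4 treated libraries, Fads1 lies above PBS in all 4, and Fads2 is at 1.67 and 1.46 CPM in I60.

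The stearoyl-CoA desaturases Scd1 and Scd2, which introduce the first double bond, did not pass in either line. Scd2, the most abundant of the 32 per length of exon in every group, had 2614 and 1095 CPM in the C40 libraries and 2257 and 2146 CPM in the I60 libraries, against 2287 and 3515 CPM in the PBS libraries (limma adjusted p = 0.241 and 0.551). The C40 libraries lay on either side of the first PBS library and both I60 libraries just below it, with the second C40 library the lowest of all. Scd1 had 579 and 521 CPM in the C40 libraries and 266 and 318 CPM in the I60 libraries, against 306 and 496 CPM in the PBS libraries. It was above PBS in both C40 libraries (log2 fold change 0.49, limma adjusted p = 0.202) and overlapped PBS in I60 (-0.42, limma adjusted p = 0.252). The I60 libraries lay below both C40 libraries, with a difference of -0.91 (interval -1.50 to -0.33, limma adjusted p = 0.0707) that did not pass. Scd3 and Scd4, close relatives, stayed under 1 CPM in every library.

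The 2 desaturases of polyunsaturated fatty acids went in opposite directions. Fads2, the delta-6 desaturase (mm10 chromosome 19, 10062765 to 10101503), had 77.7 and 36.5 CPM in the C40 libraries and 1.67 and 1.46 CPM in the I60 libraries, against 120.3 and 198 CPM in the PBS libraries. It was nearly lost in both I60 libraries and intermediate in C40. Fads2 fell by 6.23 on the log2 scale in I60 (SE 0.40, limma adjusted p = 5.7e-05), kept with any single library left out, and by 1.52 in C40 (SE 0.40, limma adjusted p = 0.0363). The C40 call was lost without any one library other than C40 replicate 1 (limma adjusted p from 0.0793 to 0.197), with no filter on low values (0.0783) and with I60 left out of the fit (0.076). Fads1, the delta-5 desaturase that acts after it (mm10 chromosome 19, 10182877 to 10196874), had 87.9 and 97.5 CPM in the C40 libraries and 39.1 and 49.7 CPM in the I60 libraries, against 11.1 and 27.7 CPM in the PBS libraries. The C40 libraries were the highest and the I60 libraries in between, without overlap, as for 30.9% of all genes in C40 and 35.5% in I60. Fads1 rose 5.15-fold in C40 (log2 fold change 2.36, SE 0.40, limma adjusted p = 0.00686), kept with any single library left out, and 2.47-fold in I60 (1.30, SE 0.40, limma adjusted p = 0.0498). The I60 call was lost without either I60 replicate or PBS replicate 1 (limma adjusted p from 0.137 to 0.237), with edgeR (adjusted p = 0.0667) and with a pseudocount of 1 (limma adjusted p = 0.0507). PBS library 1 had 11.1 CPM and library 2 27.7 CPM, so that without PBS replicate 1 the log2 fold change in I60 was 0.66.

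Fads2 and Fads1 lie beside each other on mm10 chromosome 19, on opposite strands. The genes that flank them were read for their levels after the values of Fads1 and Fads2 were seen. Fads3, on the far side of Fads2, had 182 and 513 CPM in the C40 libraries and 289 and 314 CPM in the I60 libraries, against 174 and 238 CPM in the PBS libraries. Fen1 and Tmem258, on the far side of Fads1 and overlapping each other, had at least 112 and 46.7 CPM in every library. All 3 stayed well above 0 in I60 and none was called in either line (limma adjusted p from 0.115 to 0.835). The near loss in I60 was thus seen for Fads2 alone of these 5 genes.

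**Figure D5:**
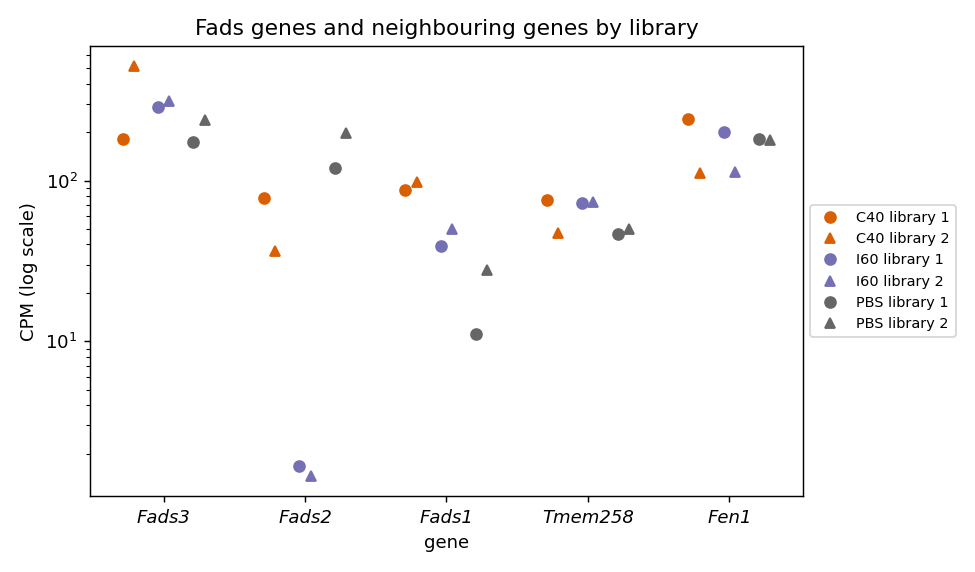
CPM (log scale) of Fads3, Fads2, Fads1, Tmem258 and Fen1 in each library (orange C40, purple I60, grey PBS; circles library 1, triangles library 2). Fads2 is at 1.67 and 1.46 CPM in I60, while the other 4 genes have at least 39.1 CPM there.

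Between the lines, 1 of the 32 genes differed. Fads2 was lower in I60 than in C40 by 4.71 on the log2 scale (SE 0.40, limma adjusted p = 0.000651), kept with any single library left out, in a comparison that called 5.73% of all genes lower and 3.51% higher. No sterol regulator or enzyme (0 of 24) was called between I60 and C40 by limma, and 0 by edgeR or DESeq2. At an unadjusted p under 0.05 limma had 1, Tm7sf2. The intervals were wide: for Lss the difference was 0.06 (interval -0.79 to 0.91) and for Hmgcs1 0.50 (interval -0.83 to 1.83). Calls among the 24 appeared with 1 C40 library left out, higher in I60 without C40 replicate 1 and lower without C40 replicate 2. The counts over all genes also moved with 1 library left out, so these calls are no result about the branch. Fads1 was lower in I60 than in C40 in both libraries (-1.06, SE 0.40, limma adjusted p = 0.174) and did not pass.

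Per kilobase of exon, the order of levels among members changed with these differences. Dhcr7 ranked 10 of the 32 in C40, at 26.4 ± 11.4 CPM per kilobase, and 12 in I60, at 20.0 ± 1.13, against 4 in PBS, at 91.0 ± 5.24 (SD, n = 2 libraries). Fads2 was the lowest of all in I60, at 0.474 ± 0.0455, against 48.2 ± 16.6 in PBS. Scd2, Fasn, Acly, Scd1 and Ebp were among the highest 6 in every group, and Idi1 and Tm7sf2 stood lowest in PBS, at 2.27 ± 0.195 and 2.24 ± 0.85, which did not differ beyond their spread.

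Genes around the pathway were read from 2 lists. Of 16 genes of sterol uptake, processing, regulation and export, 15 were tested. C40 had 5 that rose and 3 that fell, I60 had 5 that rose and 0 that fell (median log2 fold change -0.05 and 0.24), beside 11.2% higher and 9.02% lower of all genes in C40 and 13.9% and 13.1% in I60. Abcg1, a cholesterol exporter, had 56.3 and 43.6 CPM in the C40 libraries and 18.4 and 17.8 CPM in the I60 libraries, against 7.98 and 5.83 CPM in the PBS libraries, and rose 6.83-fold in C40 (limma adjusted p = 0.000498) and 2.53-fold in I60 (limma adjusted p = 0.00751). Abca1, another exporter, had 14.9 and 6.18 CPM in the C40 libraries and 1.83 and 3.35 CPM in the I60 libraries, against 1.17 and 0.597 CPM in the PBS libraries, rose 7.49-fold in C40 (limma adjusted p = 0.00574) and did not pass in I60 (limma adjusted p = 0.115). Npc2, which hands cholesterol out of the lysosome, had 390.0 and 375 CPM in the C40 libraries and 358 and 449.5 CPM in the I60 libraries, against 103 and 124 CPM in the PBS libraries, and rose 3.38-fold and 3.54-fold (limma adjusted p = 0.000914 and 0.000452).

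Of 20 genes of fatty acid supply, elongation and glycerolipid synthesis, 17 were tested. C40 had 2 that rose and 2 that fell, I60 had 3 that rose and 4 that fell (median log2 fold change -0.11 and -0.35). Of all genes, 11.2% were called higher and 9.02% lower in C40, with 13.9% higher and 13.1% lower in I60, so the C40 counts are near the background and are no result about the list. The genes named are those with the largest changes among the called. Me1, the malic enzyme that yields NADPH for synthesis, had 39.4 and 26.4 CPM in the C40 libraries and 24.7 and 19.9 CPM in the I60 libraries, against 52.1 and 51.1 CPM in the PBS libraries, and fell 2.30-fold in I60 (limma adjusted p = 0.012). Dgat1, which makes triglyceride, had 28.4 and 26.8 CPM in the C40 libraries and 29.6 and 27.0 CPM in the I60 libraries, against 13.0 and 13.0 CPM in the PBS libraries, and rose in both lines, 2.07-fold and 2.13-fold (limma adjusted p = 0.0106 and 0.00674). Among genes that activate fatty acids with CoA, Acsl1 had 28.6 and 22.4 CPM in the C40 libraries and 26.3 and 22.2 CPM in the I60 libraries, against 14.8 and 13.1 CPM in the PBS libraries. It rose 1.79-fold and 1.71-fold (limma adjusted p = 0.0431 and 0.0459), Acsl4 fell 1.83-fold and 2.06-fold (limma adjusted p = 0.045 and 0.0192), and Acsl3 fell 1.76-fold in I60 (limma adjusted p = 0.0168). Elovl7, an elongase, fell 1.98-fold in C40 (limma adjusted p = 0.0168) and did not pass in I60 (limma adjusted p = 0.15).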

How the data were processed

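The authors deposited a table of CPM, the reads of a gene scaled to an equal total over all listed genes, for 24454 Entrez gene IDs in 6 libraries. Reads were aligned with STAR to mm10, per the submitters' processing notes; the sources used here give no counting tool, annotation or strand setting. Symbols came from RefSeq, which matched 24374 IDs. The 11524 genes that reached 1 CPM in 2 or more libraries were fitted with limma 3.58.1 in R 4.3.3 on log2(CPM + 0.5), with all 6 libraries in 1 model of 3 groups and 3 residual degrees of freedom. Fold changes are on that scale, which understates those of low genes. Benjamini-Hochberg adjustment ran over all genes tested, and a call is an adjusted p below 0.05. Intervals are 95%. CPM steps gave whole reads for 100% of values (within 0.01), on which edgeR 4.0.16 (higher and lower calls 1351 and 1016 in C40, 1626 and 1484 in I60) and DESeq2 1.42.0 were run as alternatives. Levels per kilobase divide CPM by exon length from GENCODE. The model was tested on simulated data. The members and lists were chosen with earlier results of these data known, and from the 2 related lists at most 6 called genes with the largest change were named. Some genes of the sterol list are not reported here singly.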

Additional observations from a re-analysis of the deposited data

Results flagged for a closer look

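The 2 H2O2 lines differed on Fads2. It had 1.67 and 1.46 CPM in I60 and 77.7 and 36.5 CPM in C40, and the test of I60 against C40 gave a log2 fold change of -4.71 (limma adjusted p = 0.000651), with both I60 libraries below both C40 libraries. The call was kept under all 15 alternatives tried.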

How the results depend on the processing

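Which genes passed depended on single libraries more than on scaling. A fit without 1 library estimates the spread from fewer libraries, and that spread is shared by the 3 groups. Over all genes the SD of library 2 minus library 1 was 0.623 in C40, 0.379 in I60 and 0.363 in PBS. Which library is left out thus changes the spread, so a call lost or gained need not mean a changed effect. Other scaling factors moved the median of all genes by at most 0.011. With 1 library left out at a time, the sterol branch had 3 to 19 genes lower in C40 (15 with all libraries) and 3 to 20 in I60 (14), and the fatty acid branch 0 to 6 lower in C40 (3) and 1 to 5 lower and 0 to 1 higher in I60 (4 and 1). For I60 against C40 the sterol branch had 0 to 5 higher and 0 to 1 lower, and the fatty acid branch 0 to 1 higher. Over all genes, 549 to 1717 were higher and 425 to 1750 lower in C40, 756 to 2120 higher and 740 to 2070 lower in I60, and 140 to 832 higher and 249 to 937 lower in I60 against C40 (660 lower with all libraries). Srebf1 in C40 ranged over -0.56 to 0.36, above 0 without C40 replicate 2 (0.36) and without PBS replicate 2 (0.12). In I60 Srebf1 ranged over -0.39 to 0.06 and Srebf2 over -0.33 to 0.16, both above 0 without PBS replicate 2. None of these was called, and the cause was not tested. With no filter on low values the sterol branch had 9 lower and the fatty acid branch 1 lower in C40, and 0 higher in I60. With only the groups compared in the fit, 7 sterol genes were lower in C40 and 418 of all genes lower in I60 against C40. In I60 against PBS that fit added Stard4, Acat2, Hmgcs1, Mvk, Idi1, Ebp and Fasn as lower (limma adjusted p of 0.00135 to 0.0125). DESeq2 called 5 of the fatty acid branch lower in C40, and in I60 against C40 2 of it and 1064 of all genes; edgeR and a pseudocount of 1 called 0 of the branch higher in I60. Libraries of different groups share only a number. Their differences between replicates correlated at 0.15 for C40 and PBS, 0.11 for I60 and PBS and 0.44 for I60 and C40 across genes. A replicate block ended no call of a member and added some. In C40 it gave 16 sterol genes and 5 fatty acid genes lower, adding Stard4, Acaca and Fasn (limma adjusted p = 0.0281, 0.0323 and 0.0382). In I60 it gave 19 sterol genes and 5 fatty acid genes lower, adding Stard4, Acat2, Hmgcs1, Idi1, Ebp and Fasn (limma adjusted p of 0.0209 to 0.0459, with 0.0337 for Fasn). In I60 against C40 it gave 2 fatty acid genes lower, adding Scd1 (0.0427). With 2 libraries a group, differences the size of the smaller folds were often not callable.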
